A study of Mus musculus with 2 samples.

Results

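Serpins are a family of protease inhibitors, and their transcripts were followed here through the cells of the mouse maxillary periodontium, the gum, ligament and bone that hold the upper teeth. The members were all genes whose symbol begins with Serpin, a clade letter and a digit, without pseudogenes. The files list 62 such genes among 32285. Of these, 36 had at least 20 counted molecules (unique molecular identifiers, UMIs) over both libraries and were used, 15 had at least 1 UMI but fewer, and 11 had none. Serpina1d, with 36 UMIs, lay just inside that limit, and Serpina10 and Serpina11, with 18 each, just outside. The limit used only total counts.

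The series holds 2 droplet single-cell libraries of this tissue, titled 377P and RP, with 1 library per title. The labels give neither the meaning of the titles nor strain, sex, age, treatment or the number of mice pooled, so whether either library is a control cannot be told. Differences between them have no replicate check, and every interval given covers counting error only. The groups are therefore named by title alone.

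A typical serpin presents a flexible reactive centre loop as bait, and a protease that cuts it is trapped in a covalent complex while the serpin snaps into a new shape. Secreted members govern clotting, plasmin formation and complement, whereas most clade B members stay inside cells, where they face proteases that leak from lysosomes or granules. Several members have lost inhibitory function, among them Hsp47, a collagen chaperone, and PEDF, a secreted factor that restrains vessel growth. Barrier epithelia such as gum carry many clade B members.

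The 377P library held 15466 barcodes and 127094166 UMIs, and RP held 18112 and 120909095. After filtering, 14519 and 16776 cells remained, with medians of 5102 and 4308.5 UMIs, and 82 barcode sequences occurred in both. Clusters were made without Serpin genes and named from marker lists that hold none. There were 37 clusters, 14 named classes, and 8 classes with at least 200 cells in each library, which were compared. Most cells of a class lay in separate clusters in each library: clusters 2 and 8 against 16, 17 and 31 for keratinocytes, and clusters 6 and 7 against 32, 33, 34 and 36 for fibroblasts. For T or NK cells these were clusters 9 and 11 against 29, for B or plasma cells 4 against 28, and for monocytes or macrophages 5 against 23. Blood endothelium lay in cluster 3 in 377P and mainly in 27 and 35 in RP. Pericytes or smooth muscle lay in clusters 10 and 20 against 20 and 21, and mucous gland in 15 and 24 in both. The markers of keratinocytes, fibroblasts and vessels fit the labelled tissue, and there were also gland cells and unnamed clusters, one led by the enamel genes Amelx, Enam and Ambn and others by odorant-binding protein genes. Levels are UMIs of a gene per 1000000 UMIs of the class in a library (CPM), and in bulk sums like these fewer expressing cells and less RNA per cell cannot be told apart.

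Serpins made up 1720 CPM of all kept UMIs in 377P and 1620 in RP. The share was highest in fibroblasts among the compared classes, at 4090 and 3691 CPM, and lowest in B or plasma and T or NK cells, between 445 and 564 CPM. Keratinocytes held 1426 and 1369 CPM, blood endothelium 1401 and 1094, and pericytes or smooth muscle 1883 and 1643.

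Of the 36 members, 29 had their highest CPM in the same compared class in both libraries, against 68.9% of 20703 genes of at least 20 UMIs. Fibroblasts were highest for 8 members (background 9.31%), namely Serping1, Serpinh1, Serpinf1, Serpinb6a, Serpina3c, Serpina3i, Serpina3m and Serpina3n. Keratinocytes were highest for another 8 (background 8.9%), Serpinb5, Serpinb2, Serpinb12, Serpinb3a, Serpinb3b, Serpinb7, Serpinb13 and Serpinb1b. Blood endothelium was highest for 4 (6.98%), pericytes or smooth muscle for 3 (7.93%), and T or NK cells, monocytes or macrophages and mucous gland for 2 each (7.02%, 7.49% and 11%). B or plasma cells were highest for 0 members, against 10.3% of all genes. Thus 8 of 8 keratinocyte members were clade B, and 7 of the 8 fibroblast members belonged to other clades. Clade B was not confined to keratinocytes. Serpinb6a was highest in fibroblasts, Serpinb1a in blood endothelium, Serpinb6b in T or NK cells, Serpinb8 in monocytes or macrophages and Serpinb11 in mucous gland. In RP, Serpina3i was nearly equal in fibroblasts (0.961 CPM, 21 UMIs) and keratinocytes (0.954 CPM, 35 UMIs).

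**Figure D1:**
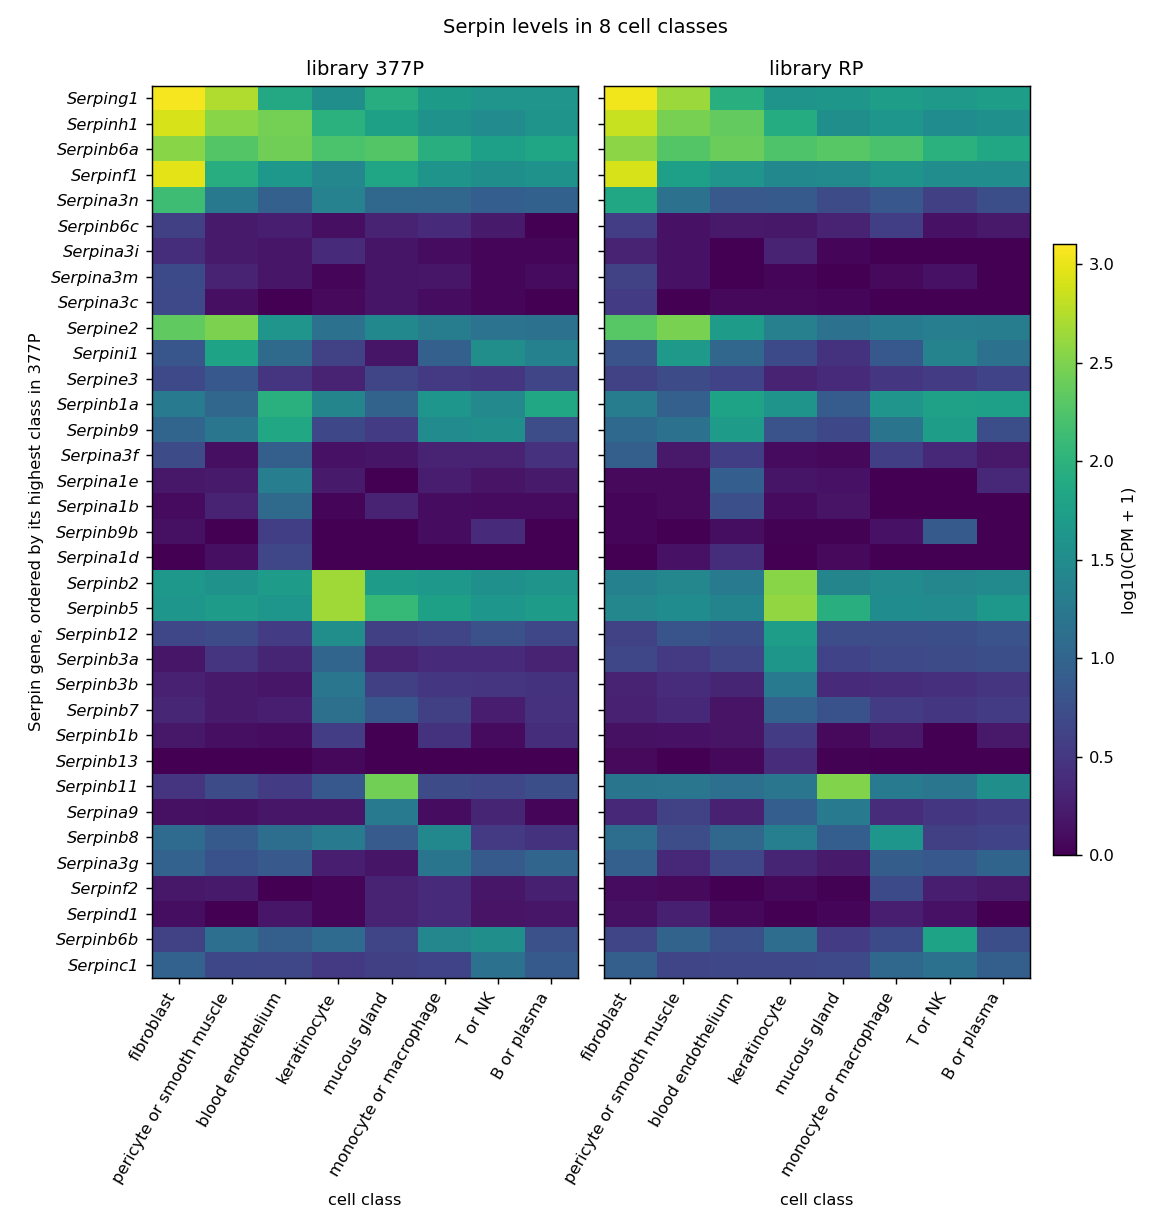
Level of the Serpin genes reported here (rows) in 8 cell classes (columns) of the libraries 377P and RP, as log10(CPM + 1), with rows ordered by the class of highest level in 377P. In both libraries Serping1, Serpinh1 and Serpinf1 are brightest in fibroblasts, Serpinb2 and Serpinb5 in keratinocytes, and Serpinb11 in mucous gland.

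The keratinocyte members are also neighbours in the genome. On chromosome 1, 11 listed clade B genes lie within 749 kb (chr1:106861173-107610484, GRCm38), and 9 of them had at least 20 UMIs. In both libraries 7 of those 9 were highest in keratinocytes, while Serpinb11 was highest in mucous gland and Serpinb8 in monocytes or macrophages. The clade A group on chromosome 12 held 23 listed and 10 used genes, of which 4 were highest in fibroblasts and 0 in keratinocytes. The clade B group on chromosome 13 held 15 listed and 7 used genes, with 1 highest in keratinocytes and 1 in fibroblasts.

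Start-site windows of RefSeq (build GRCm38.p6) were found for 30 of the 36 used members, including 8 of the 9 on chromosome 1. The AP-1 motif TGANTCA, bound by the Fos and Jun factors that are prominent in epidermis, stood on either strand in the 250 bases before the start of 6 of those 8 genes, and of 2 of the other 22. The 6 are Serpinb2, Serpinb5, Serpinb7 and Serpinb12, which were highest in keratinocytes, and Serpinb8 and Serpinb11, which were not, while the keratinocyte genes Serpinb3a and Serpinb3b had no match. Of the windows listed for Serpinb12 at separate starts, the other one (from position 106938707) had none. The motif stands in 6.75% of 32851 such windows of all genes. For Serpinb11, Serpina1b and Serpina1d, the start used was not found near the first bases of that gene's coding transcripts in the Gencode annotation. On either strand, the TATA box TATAAA stood in windows of 5 of the 8 and 2 of the other 22, against 12.4% of all windows. The windows of Serpinb12, Serpinb7, Serpinb2 and Serpinb5 are shown because these neighbours were all highest in keratinocytes yet differed between keratinocyte layers, as described further on. Each is the 250 bases before the start, on the plus strand, with the AP-1 match in capitals: Serpinb12 at chr1:106934199-106934448, Serpinb7 at chr1:107422439-107422688, Serpinb2 at chr1:107511173-107511422 and Serpinb5 at chr1:106860925-106861174.
Serpinb12: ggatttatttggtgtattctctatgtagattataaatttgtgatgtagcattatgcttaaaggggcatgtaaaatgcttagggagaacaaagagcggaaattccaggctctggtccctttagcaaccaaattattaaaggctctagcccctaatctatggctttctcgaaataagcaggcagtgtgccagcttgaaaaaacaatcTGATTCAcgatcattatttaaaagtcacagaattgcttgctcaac
Serpinb7: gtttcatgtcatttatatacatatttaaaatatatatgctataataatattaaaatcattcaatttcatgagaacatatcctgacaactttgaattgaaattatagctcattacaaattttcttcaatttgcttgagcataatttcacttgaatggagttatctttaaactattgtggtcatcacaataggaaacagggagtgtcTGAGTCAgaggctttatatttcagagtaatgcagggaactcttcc
Serpinb2: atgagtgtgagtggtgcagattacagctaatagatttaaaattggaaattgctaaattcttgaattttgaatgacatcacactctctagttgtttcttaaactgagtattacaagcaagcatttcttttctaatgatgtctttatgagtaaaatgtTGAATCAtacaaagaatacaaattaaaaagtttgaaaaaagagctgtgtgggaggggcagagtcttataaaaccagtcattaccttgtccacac
Serpinb5: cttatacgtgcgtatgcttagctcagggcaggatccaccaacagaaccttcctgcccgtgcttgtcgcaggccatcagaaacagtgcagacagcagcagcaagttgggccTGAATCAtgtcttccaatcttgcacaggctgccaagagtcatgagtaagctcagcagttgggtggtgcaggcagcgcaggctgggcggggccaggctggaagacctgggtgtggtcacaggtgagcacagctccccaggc
The match begins 45 bases before the start in both Serpinb12 and Serpinb7, 94 bases before it in Serpinb2 and 140 bases before it in Serpinb5. These are letters in a window, and whether a factor binds them was not measured.

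Among the secreted regulators of complement and clotting, Serping1 had its highest level in fibroblasts. It encodes the C1 inhibitor, which blocks the complement proteases C1r and C1s and the contact-system proteases. Fibroblasts held 1130 CPM (95% interval 1116 to 1145, 23766 UMIs) in 377P and 1090 CPM (1076 to 1104, 23806 UMIs) in RP. Pericytes or smooth muscle came next at 532 and 433 CPM, and the other 6 compared classes lay between 33.98 and 85.8 CPM. In RP, fibroblast cluster 32, led by Apod, Cygb and Gdf10, reached 1455 CPM. With every cell thinned to 1000 UMIs, 62.6% of fibroblasts in 377P and 62.4% in RP had a Serping1 UMI, against 4.598% and 3.63% of T or NK cells, a class taken as background. Thinning left out 16 and 31 fibroblasts and 26 and 24 T or NK cells, whose classes had median depths of 6711 and 4664, and of 4271 and 2954 UMIs. Without thinning the shares were 95.6% and 92.9% of fibroblasts and 16.8% and 14.2% of T or NK cells. The thinned share in pericytes or smooth muscle was 34.8% and 32.8%.

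Several complement protease genes, among them those of C1r and C1s, followed the same class. Of the 15 genes in the list of complement and contact proteases, C1ra, C1rb, C1s1, C1s2, Cfb and Masp1 were highest in fibroblasts in both libraries (background 9.31%). Masp2 was highest in T or NK cells in both, at 3.39 and 2.89 CPM. In fibroblasts, C1s1 stood at 223 and 190 CPM, and Masp1, a lectin-pathway protease, at 157 and 155 CPM. F11, F12, Klkb1, Kng1 and Kng2, the contact-system genes usually made in liver, stayed at or below 2.09 CPM in their highest class.

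Serpinh1, which encodes the collagen chaperone Hsp47, followed collagen-making cells. Fibroblasts held 823 CPM (811 to 835) in 377P and 684 CPM (673 to 695) in RP, followed by pericytes or smooth muscle at 357 and 291 CPM and blood endothelium at 278 and 227 CPM. Keratinocytes lay lower at 95.3 and 83.2 CPM, and the remaining 4 compared classes between 30.7 and 57.2 CPM. Of the 22 genes in the list of collagen and its folding partners, 15 were highest in fibroblasts in both libraries (background 9.31%), among them Col1a1, Col3a1, P4ha1, Plod2 and Crtap. Another 4, Col4a1, Col4a2, Plod1 and Plod3, were highest in blood endothelium. Leprotl1, which the list includes although it is not a known collagen folding gene, was highest in T or NK cells. Ppib and P4hb, which also fold other secreted proteins, were highest in mucous gland. Across clusters of at least 50 cells, the rank correlation of Serpinh1 with the summed level of 5 fibrillar collagen genes was 0.72 over 20 clusters of 377P and 0.83 over 25 clusters of RP. Clusters of a library share its depth and free RNA, so these values are descriptions.

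Serpinf1 encodes PEDF and was more narrowly held than Serpinh1. Fibroblasts stood at 939 CPM (926 to 952) in 377P and 817 CPM (805 to 829) in RP. The next compared class, pericytes or smooth muscle, held 83.4 and 54.5 CPM, and blood endothelium, where Serpinh1 was plentiful, held 43.4 and 40.6. Its rank correlation with the same collagens was 0.92 and 0.86, and that of Serping1 was 0.84 and 0.84. The pattern was therefore not particular to Serpinh1.

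Serpine2 encodes protease nexin-1, a secreted inhibitor of thrombin and urokinase. It was highest in pericytes or smooth muscle among the compared classes, at 309 CPM (289 to 329) and 301 CPM (286 to 317), ahead of fibroblasts at 222 and 198. Within the mural class, the cluster led by Ccl11, Vtn and Rgs5 held 517 CPM against 220 in the Myh11 cluster of 377P, and 509 against 197 CPM in RP. That is 2.35-fold (2.06 to 2.68) and 2.59-fold (2.33 to 2.88) higher in the same direction in both libraries. Serpine2 and Serpinf1 were the 2 of 13 members tested that were at least 2-fold higher in the Rgs5 cluster in both libraries (background 5.43%), and 0 were as much lower (4.71%). Neuron-like cells, numbering 74 and 23, held still more Serpine2, at 756 and 665 CPM.

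Fibroblast clusters also differed in Serpine2. The cluster led by Fmod, Tnn and Thbs4, genes of ligament and tendon matrix, held 344 CPM against 170 in the cluster led by Mmp3, Clec3b and Dpt in 377P. In RP, cluster 34, led by Gpx3, Tnn and Ibsp, and cluster 33, which had Clec3b and Tnxb among its leading genes, held 267 against 130 CPM, so the fold was 2.03 (1.91 to 2.15) and 2.05 (1.90 to 2.21). Serpina3f, a mouse-expanded clade A member, was higher in the same clusters by 2.76-fold (1.78 to 4.28) and 8.31-fold (4.72 to 15.6), at 7.73 against 2.80 CPM in 377P and 12.8 against 1.54 in RP. These were the 2 of 23 members tested that were at least 2-fold higher in both libraries (background 2.87%). Serpina3c and Serpinb6c were at least 2-fold lower there in both (background 2.52%), each with 6 or fewer UMIs in the lower clusters, and the interval of Serpinb6c in RP (0.789 to 6.12) included no difference. Serping1 was 2.52-fold (2.42 to 2.63) lower in cluster 34 than in cluster 33 of RP, at 505 against 1274 CPM, and stood at 805 against 1272 CPM in 377P.

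Among the proteases that Serpine2 meets, the plasminogen activators were well above plasminogen in counts. Plat, tissue plasminogen activator, was highest in fibroblasts at 142 and 145 CPM. Plau, urokinase, was highest in pericytes or smooth muscle in 377P at 61.2 CPM and in monocytes or macrophages in RP at 75.5 CPM. Its receptor gene Plaur was highest in monocytes or macrophages at 195 and 199 CPM. Plg, which encodes plasminogen, had 10 UMIs in the compared classes together, and F2, which encodes prothrombin, had 84.

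**Figure D2:**
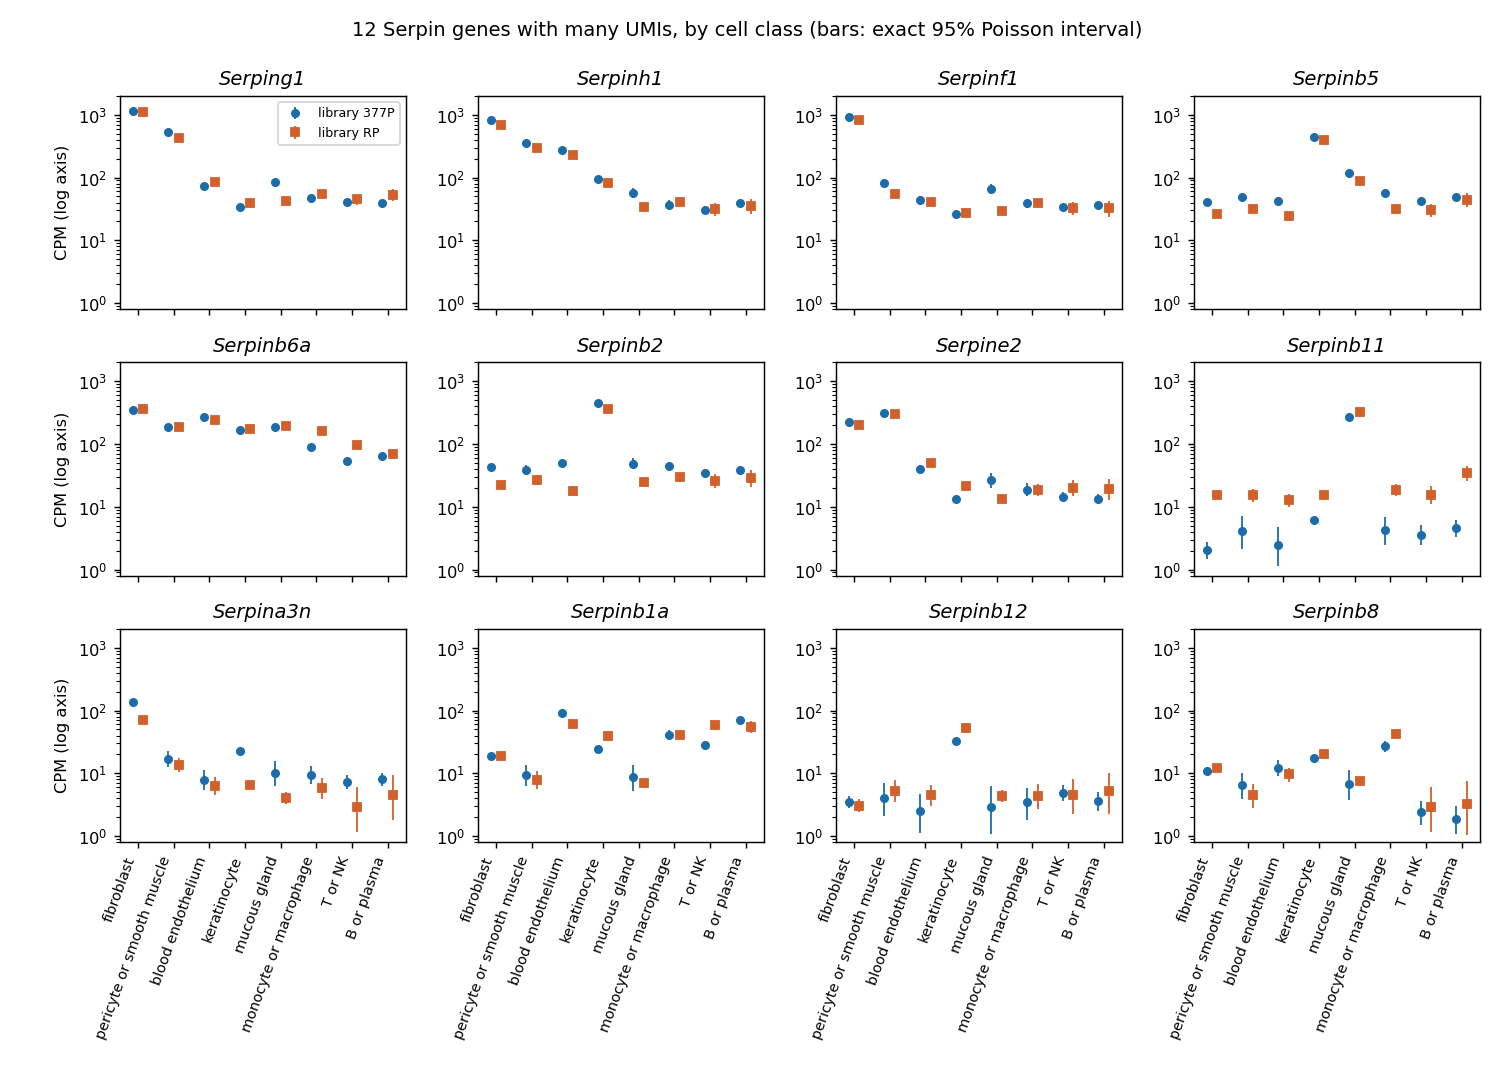
Level in CPM (log axis) of 12 Serpin genes with many UMIs in the 8 compared classes, for libraries 377P (circles) and RP (squares), with exact 95% Poisson intervals. Serping1, Serpinh1 and Serpinf1 peak in fibroblasts, Serpinb5, Serpinb2 and Serpinb12 in keratinocytes, and Serpinb11 in mucous gland, where 377P stands at 272 CPM and RP at 323.

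In the epithelium, Serpinb5 encodes maspin, a clade B protein without known protease inhibition that marks squamous and glandular epithelium. Keratinocytes held 448 CPM (442 to 454, 22617 UMIs) in 377P and 397 CPM (391 to 404, 14579 UMIs) in RP. Mucous gland came next at 119 and 88.9 CPM, and the 6 other compared classes lay between 24.2 and 56.7. At 1000 UMIs per cell, 34.1% and 29.3% of keratinocytes had a Serpinb5 UMI, against 3.68% and 3.09% of fibroblasts, and 91.5% and 82.6% against 24.7% and 12.9% without thinning. The keratinocyte medians were 14324 and 9482 UMIs, and thinning left out 38 and 84 keratinocytes.

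Serpinb2, which encodes PAI-2, an inhibitor of urokinase kept largely inside cells, stood at 449 CPM (444 to 455) in keratinocytes of 377P and 356 CPM (350 to 362) in RP. No other compared class exceeded 50.3 CPM. Cluster 26, which carried no class name and was led by Psca, Reg3g and Muc5ac, held 722 CPM in RP (699 to 745, 384 cells). The same cluster held 764 CPM in 377P from 34 cells. In 9 non-epithelial clusters of 377P the Serpinb2 level ran from 32.0 to 53.5 CPM, with a median of 7.09% of its highest cluster. In 12 such clusters of RP it ran from 15.9 to 33.4 CPM, with a median of 3.48%. The medians of Serpinb5 were 7.49% and 5.56%. Among keratins that these cells should lack, the medians were 8.96% and 5.99% of the highest cluster for Krt5. They were 10.9% and 6.13% for Krt14, but 3.23% and 3.28% for Krt13. Low Serpinb2 and Serpinb5 values outside epithelium were thus a lower share than those of Krt5 and Krt14 and a higher share than those of Krt13. The part of free RNA in them was not tested.

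Serpinb12, Serpinb3a and Serpinb3b were higher in the suprabasal layer. Serpinb12 inhibits trypsin-like proteases, and the Serpinb3 genes are relatives of the squamous cell carcinoma antigens, which act on cysteine and serine proteases. The suprabasal clusters, 8 in 377P and 16 in RP, had Krt76, Mt4, Krt24 and Tgm3 among their leading genes, with Serpinb3a and Serpinb12 also among those of cluster 16. The basal clusters, 2 and 17, were led by Col17a1, Trp63 and Pappa. Krt5 was highest in these basal clusters. Krt14, also a basal keratin, was highest in cluster 17 in RP, at 9603 CPM, but in the suprabasal cluster 8 in 377P, at 8996 CPM. Serpinb12 held 96.8 CPM in the suprabasal and 4.45 in the basal cluster of 377P, and 129 against 4.45 CPM in RP. The folds were 21.8 (18.4 to 25.9) and 29.05 (22.3 to 38.5). Serpinb3a held 28.6 against 0.722 CPM in 377P and 103 against 2.81 CPM in RP, a 39.6-fold (26.5 to 61.9) and 36.6-fold (26.3 to 52.5) difference. The basal level of Serpinb12 lay within its range in non-epithelial clusters, 2.52 to 5.89 CPM in 377P and 2.87 to 6.69 in RP. So did that of Serpinb3a, whose range was 0.315 to 2.94 CPM in 377P and 1.13 to 6.69 in RP. The sizes of these folds are therefore uncertain, since they divide by levels also seen outside epithelium. Serpinb3b held 32.1 against 8.02 CPM and 36.9 against 8.205 CPM, 4.001-fold and 4.503-fold. Serpina9 was 2.83-fold (1.19 to 6.88) and 3.89-fold (2.24 to 7.18) higher at low levels, 0.897 CPM (14 UMIs) and 4.87 CPM (69 UMIs). Its 377P level lay within its range of 0 to 1.16 CPM in non-epithelial clusters.

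These were the 4 of 24 members tested that were at least 2-fold higher in the suprabasal cluster in both libraries, against 2.31% of 14281 genes. Since those clusters were formed on other genes of the same cells, the comparison describes layers and is not a test. Serpinb13 had 51 UMIs in the suprabasal and 2 in the basal cluster of RP.

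The basal layer held its own members. Serpinb7, a clade B gene whose human relative is lost in a palmoplantar keratoderma, held 15.6 CPM in the basal cluster of both libraries and 7.31 and 6.13 in the suprabasal ones, which is 2.14-fold (1.75 to 2.64) and 2.55-fold (1.97 to 3.32) lower above the basal layer. Serpinh1 was 2.28-fold (2.11 to 2.47) and 2.05-fold (1.88 to 2.23) lower there, at 50.6 against 116 CPM and 57.5 against 118 CPM. With Serpina3i these were the 3 of 24 that were at least 2-fold lower in both libraries (background 1.89%). Serpinb5 was 1.53-fold (1.49 to 1.57) higher in the suprabasal cluster of 377P, with 589 against 385 CPM, and stood at 537 against 335 CPM in RP. Serpinb6a was 1.88-fold (1.78 to 1.98) and 1.51-fold (1.42 to 1.60) lower above the basal layer, and Serpinb1a 1.90-fold (1.70 to 2.13) and 2.33-fold (1.99 to 2.75) higher. Serpinb7 and Serpinb12, whose windows are printed above, were thus higher in opposite layers.

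**Figure D3:**
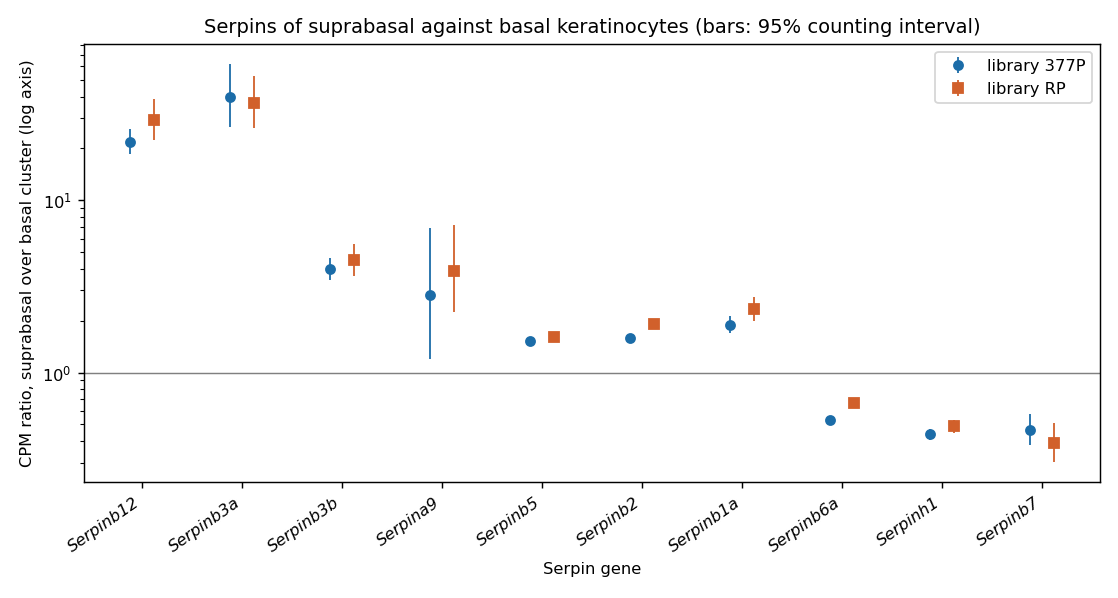
Ratio of CPM in the suprabasal over the basal keratinocyte cluster (log axis) for 10 Serpin genes in 377P (circles) and RP (squares), with 95% counting intervals. Serpinb12 and Serpinb3a lie above 20-fold in both libraries, and Serpinh1 and Serpinb7 lie below 1.

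Serpinb11 was a gland gene in this tissue. Mucous gland held 272 CPM (250 to 296, 562 UMIs) in 377P and 323 CPM (315 to 331, 6215 UMIs) in RP. Cluster 15, led by Scgb2b12, Tff2 and Smgc, held 273 and 338 CPM. Cluster 24, whose cells had a median of 658 UMIs and whose leading genes were hemoglobins beside Muc5b and Muc19, held 260 CPM from 17 UMIs and 88.3 from 102 UMIs. Cluster 26 held 344 CPM in 377P (34 cells) and 236 in RP. At 1000 UMIs per cell, 21.3% and 23.8% of mucous gland cells had a Serpinb11 UMI, against 0.0758% and 1.84% of fibroblasts. Thinning left out 62 of the 222 and 1225 of the 2651 mucous gland cells, which had median depths of 3305 and 1144 UMIs, and without it the shares were 50% and 41.7%, with fibroblasts at 1.58% and 8.08%. The other mucous gland member, Serpina9, stood at 18.4 and 18.1 CPM.

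Serpinb6a was present at 54.5 CPM or more in each of the 8 compared classes. It inhibits cathepsin G and other serine proteases inside cells. Fibroblasts held 352 CPM (344 to 361) and 368 CPM (360 to 376), blood endothelium 267 and 246, and keratinocytes 167 and 175. The lowest level in 377P was 54.5 CPM in T or NK cells, and in RP 70.1 CPM in B or plasma cells. Lymphatic endothelium, outside the comparison, held 404 and 295 CPM.

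Serpinb1a, Serpinb6b and Serpinb9 guard leukocytes against their own granule proteases, neutrophil elastase and cathepsin G for Serpinb1a and granzymes for Serpinb9. Serpinb1a stood at 157 CPM (125 to 195, 83 UMIs) in 377P neutrophils and 123 CPM (94.99 to 156, 66 UMIs) in RP neutrophils. Among compared classes it was highest in blood endothelium at 92.1 and 61.1 CPM, followed in 377P by B or plasma cells at 69.8 CPM. Cluster 26 of RP held 241 CPM (229 to 255). Serpinb6b was highest in T or NK cells at 34.4 and 61.1 CPM. Serpinb9 was highest in blood endothelium in 377P, at 70.1 CPM, and in T or NK cells in RP, at 53.3 CPM.

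In 377P, T or NK cells fell into distinct clusters, and the one led by Il22, Icos and Il17a held more of each than that led by Lef1 and Ms4a4b. Serpinb1a stood at 105 against 14.3 CPM, a 7.34-fold (5.69 to 9.496) difference. Serpinb9 stood at 115 against 19.8 CPM, 5.81-fold (4.62 to 7.31), beside Gzmb, its target, at 97.2 against 12.4 CPM. Serpinb6b stood at 75.8 against 27.2 CPM and Serpina3g, a clade A gene of activated leukocytes, at 21.3 against 4.003. With Serpinb6a these were the 5 of 18 members at least 2-fold higher (background 10.7%), and Serpinc1 was the 1 of 18 as much lower (6.08%). The comparison exists in 377P only, since RP had a single T or NK cluster, number 29.

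**Figure D4:**
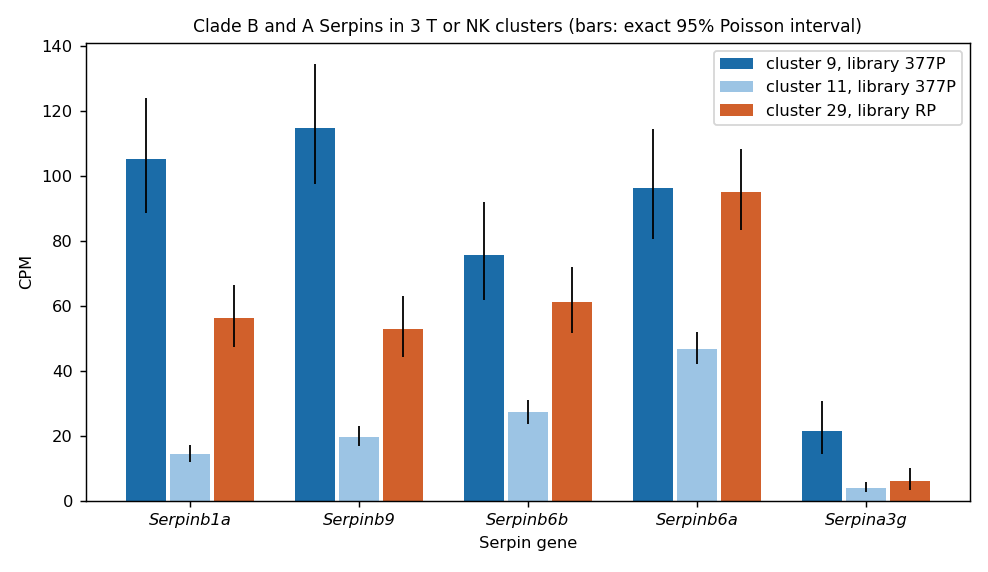
Level in CPM of 5 Serpin genes in T or NK clusters 9 and 11 of library 377P and cluster 29 of library RP, with exact 95% Poisson intervals. Cluster 9 is above cluster 11 for all 5 genes, and cluster 29 of RP lies between them for Serpinb1a and Serpinb9.

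The remaining members had lower counts. Serpina3n, which inhibits chymotrypsin-like proteases and granzyme B, was highest in fibroblasts at 136 and 71.5 CPM. It stood higher outside the comparison, in lymphatic endothelium at 277 and 134 CPM and in 18 and 57 chondrocyte-like cells, which held 404 and 428 CPM. Serpini1, neuroserpin, was highest in pericytes or smooth muscle at 61.6 and 47.1 CPM. Serpinb8, a furin inhibitor, was highest among the compared classes in monocytes or macrophages at 26.8 and 41.6 CPM. The unnamed cells held about as much, at 27.9 and 41.7 CPM. Serpinc1, the gene of antithrombin, made mainly in liver, reached 15.6 CPM in cluster 11 of 377P and 13.7 in cluster 29 of RP. The alpha-1-antitrypsin copies Serpina1b, Serpina1d and Serpina1e were highest in blood endothelium, with at most 20.1 CPM.

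Some of these values rest on reads that near-identical copies could share. Among 31-base words in the last 500 bases of the transcripts, 60.6% of those of Serpina1d, 43.5% of Serpina1e, 42.5% of Serpina1b and 38.8% of Serpina3g occur in another gene. The shares were 26.9% for Serpinb3b, 19.9% for Serpinb3a and 19.8% for Serpinb6c, and 0% for Serping1, Serpinh1, Serpinf1, Serpinb2, Serpinb5, Serpinb11 and Serpinb12. How the counting treated shared reads is not given in the sources used here, so counts of single clade A copies are uncertain.

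Between the libraries, most members differed by less than 2-fold in a given class. In keratinocytes, 4 of 29 tested members were at least 2-fold higher in RP (background 8.14%) and 1 in 377P (2.11%). In fibroblasts these counts were 3 (3.44%) and 0 (2.9%) of 29. Blood endothelium had 2 (4.36%) and 5 (3.14%) of 24, and pericytes or smooth muscle 1 (3.51%) and 1 (2.41%) of 19. T or NK cells had 4 (7.36%) and 1 (2.75%) of 22, B or plasma cells 1 (5.76%) and 0 (3.65%) of 21, and monocytes or macrophages 4 (5.27%) and 3 (2.52%) of 21. Mucous gland had 2 (4.27%) and 5 (6.44%) of 23, and without cluster 24 it had too few 377P cells to compare. Summed over classes, 21 pairs of member and class were higher in RP and 16 in 377P. Both counts depend on the settings: 16 fell to between 6 and 10 under 6 alternatives, and 21 to 6 where 100 UMIs were required.

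In keratinocytes, Serpinb3a stood at 9.33 CPM (8.50 to 10.2, 471 UMIs) in 377P and 43.1 CPM (41.0 to 45.3, 1582 UMIs) in RP, 4.62-fold higher (4.17 to 5.14). Within the matched suprabasal clusters 8 and 16 the fold was 3.60 (3.24 to 4.01), and within the basal clusters 2 and 17 it was 3.90 (2.28 to 6.78). The basal levels, 0.722 and 2.81 CPM, lay within the ranges of non-epithelial clusters, 0.315 to 2.94 CPM in 377P and 1.13 to 6.69 in RP. The basal fold therefore rests on levels also seen outside epithelium. Serpinb12 stood at 33.01 and 52.9 CPM, 1.60-fold higher in RP (1.499 to 1.71), but at 4.45 CPM in both basal clusters and 1.34-fold (1.25 to 1.43) apart in the suprabasal ones. Its basal level also lay within its range in non-epithelial clusters. Suprabasal cluster 8 held 883 of the 3291 keratinocytes of 377P, and cluster 16 held 1245 of the 3458 of RP. Serpinb13 had 9 and 53 UMIs and Serpina9 27 and 270, of which 185 lay in cluster 31, a Krt17 and Spink5 cluster with 909 cells in RP and 3 in 377P.

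Going the other way, Serpinb2 was 1.26-fold (1.24 to 1.29) and Serpinb5 1.13-fold (1.10 to 1.15) higher in keratinocytes of 377P. Serpina3n was 3.49-fold higher in 377P keratinocytes, at 22.9 against 6.54 CPM, and 3.35-fold and 2.51-fold higher in the matched basal and suprabasal clusters. The other non-fibroblast classes compared held 7.34 to 17.01 CPM of it in 377P and 2.89 to 13.6 CPM in RP. Of the other lists, 9 of 21 tested epithelial serine proteases and 13 of 29 other protease inhibitors, a list that includes gland genes, were at least 2-fold higher in RP keratinocytes (background 8.14%), and 0 of each in 377P (2.11%). Spink5, an inhibitor of skin kallikreins, stood at 87.4 and 328 CPM, and Tmprss11d, an airway and oral trypsin-like protease, at 116 and 233. Klk10 and Cst3 went the other way, at 52.1 and 45.8 CPM and at 675 and 636 CPM. Spink5 and Tmprss11d are among the leading genes of the Krt17 and Spink5 cluster, which held 909 cells in RP and 3 in 377P. These list counts and levels cover the whole class, and the part of that cluster in them was not tested. Serpinb6a was 1.05-fold (1.01 to 1.08) higher in RP keratinocytes, a direction that turned in the basal clusters and under 3 other settings, and 1.04-fold (1.01 to 1.08) higher in RP fibroblasts, which turned in thinned cells.

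In fibroblasts, Serpina3n stood at 136 CPM (131 to 141, 2865 UMIs) in 377P and 71.5 CPM (68.0 to 75.1, 1562 UMIs) in RP, 1.91-fold (1.79 to 2.03) lower in RP. RP clusters ranged from 34.3 CPM in cluster 33 to 134 in cluster 32, while the main fibroblast clusters of 377P, 6 and 7, stood at 136 and 137. Serpina3n was also lower in RP in lymphatic endothelium, 277 against 134 CPM. Serpinh1 was 1.20-fold (1.18 to 1.23) lower in RP fibroblasts and 1.22-fold (1.13 to 1.33) lower in pericytes or smooth muscle. It stood at 766 against 581 CPM in clusters 6 and 33 and at 947 against 944 in the ligament-type clusters 7 and 34. None of the 22 genes in the list of collagen and its folding partners, which includes Leprotl1, was 2-fold apart in fibroblasts. Their median log2 ratio, RP over 377P, was -0.24 against -0.03 for all genes. Over the whole class, Serping1 and Serpinf1 differed by 1.15-fold or less. In clusters 7 and 34, however, Serpinf1 stood at 1038 against 644 CPM and Serping1 at 805 against 505. In clusters 6 and 33, Serpinf1 stood at 897 against 880 CPM and Serping1 at 1272 against 1274.

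In blood endothelium, Serpinb1a stood at 92.1 CPM in 377P and 61.1 in RP, 1.51-fold (1.30 to 1.75) lower. It stood at 84.0 CPM (74.8 to 93.9) in the Selp and Sele cluster 35 of RP against 92.8 (83.1 to 103) in cluster 3 of 377P. In pericytes or smooth muscle, Serping1 was 1.23-fold (1.15 to 1.32) lower in RP.

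T or NK cells showed the opposite direction for Serpinb1a, at 28.0 CPM (24.7 to 31.7) in 377P and 58.3 CPM (49.0 to 68.7) in RP, 2.08-fold (1.68 to 2.56) higher. Against the Il17a cluster 9 alone, cluster 29 of RP was 1.87-fold lower, at 56.3 against 105 CPM. Serpinb9 behaved alike, at 33.8 and 53.3 CPM over the class and at 115 against 53.0 CPM in clusters 9 and 29. The Lef1 cluster made up 1593 of 1918 such cells of 377P, and the part of the mix of clusters in the class difference was not tested. Serpinb6a stood at 54.5 and 95.03 CPM over the class and at 96.4 and 95.2 CPM in clusters 9 and 29.

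In monocytes or macrophages, Serpinb6a was 1.82-fold (1.60 to 2.07) higher in RP, at 88.3 and 160 CPM. Serpinb6b stood at 26.5 CPM (100 UMIs) in 377P and 3.98 (19 UMIs) in RP, and Serpinb9 at 30.0 and 14.4 CPM. With cells gated one by one on markers, Serpinb9 turned to the opposite direction, with a log2 ratio (RP over 377P) of 0.83. At no more than 10% mitochondrial UMIs the class kept 5 cells in 377P, so none of these ratios could be taken. The class also held mast cell proteases in both libraries, with Cma1 at 361 and 368 CPM and Mcpt2 at 310 and 356, and its leading genes were Ccl22 and Csf1r in 377P and Retnla and Mrc1 in RP. The part of that mix in the Serpin differences was not tested. In B or plasma cells the 1 member that passed the limits for naming was Serpinb1a, 1.28-fold (1.02 to 1.62) higher in 377P.

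**Figure D5:**
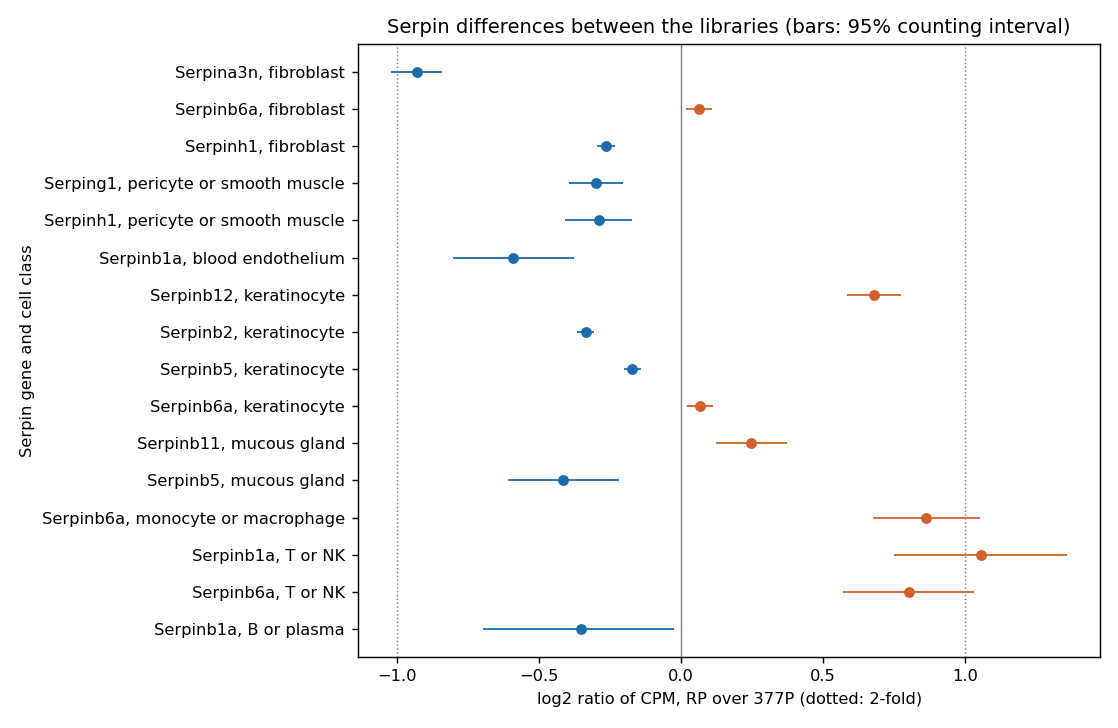
Log2 ratio of CPM, RP over 377P, for pairs of Serpin gene and cell class named by the rule, with 95% counting intervals and dotted lines at 2-fold. Serpina3n in fibroblasts (-0.93) and Serpinb1a in blood endothelium (-0.59) lie to the left, and Serpinb1a in T or NK cells (1.06) lies to the right.

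Serpinb11 outside glands was higher in RP in all 7 non-gland classes, at 2.05 to 6.14 CPM in 377P and 12.7 to 34.1 in RP. In non-epithelial clusters its median was 1.35% of its highest cluster in 377P and 4.72% in RP. The gland genes Muc5b and Tff2 moved alike, with medians of 0.741% and 0.792% in 377P and 6.07% and 5.18% in RP. RP held 1271 cells of gland cluster 15 and 377P 150, beside 1380 and 72 of the hemoglobin-led cluster 24. The part of free gland RNA in these Serpinb11 values was not tested. They are 7 of the 21 pairs higher in RP. Over both gland clusters Serpinb11 was 1.19-fold (1.09 to 1.30) higher in RP and Serpinb5 1.34-fold (1.16 to 1.53) lower.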

How the data were processed

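Single cells of the mouse maxillary periodontium were measured in 2 droplet libraries. The deposited matrices hold UMI counts per gene and barcode, written by Cell Ranger 7.0.1 per the file headers, with STAR and build mm10 named in the submitters' processing notes. The sources used here do not give the annotation release, intron setting or cell-calling options.

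Barcodes with under 200 genes, over 20% mitochondrial UMIs or a doublet call (Scrublet in Scanpy 1.11.5, 12% expected) were left out: doublets numbered 832 (5.42%) in 377P and 514 (2.97%) in RP. Both libraries were clustered together without batch correction and without Serpin genes (3000 variable genes, 40 principal components, 20 neighbours, Leiden resolution 2, igraph 0.11.9). Counts were summed per class and library and given per 1000000 UMIs with exact 95% Poisson intervals, and ratios with exact 95% intervals for a ratio of counts (SciPy 1.17.1). Intervals cover counting error only. A gene was tested in a class where it had at least 20 UMIs over both libraries, and called at 2-fold. No p-value was computed, since each title has 1 library. Genes named between libraries were up to 2 per class and direction, among members with at least 50 UMIs, at least 50 CPM and at least 20% of the level in their highest cluster, ranked by counting-interval bound. Other members given between libraries (Serpinb3a, Serpinb13, Serpina9 and Serpina3n in keratinocytes, Serpinb11 outside glands, Serpinb9 in T or NK cells, Serpinb6b and Serpinb9 in monocytes or macrophages) were chosen after their values were seen. Shares of cells were taken after thinning each cell to 1000 UMIs. The ratio code was tested on simulated data.

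The members, gene lists and markers were chosen with earlier results of these data known. Once clusters had been inspected, limits for naming them were set, and B cells were merged with plasma cells and T cells with NK cells. One member is counted among the totals but not reported here.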

Additional observations from a re-analysis of the deposited data

Results flagged for a closer look

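For 3 members the ratio between the libraries was flagged for opposite directions in different classes. Each side had 1 library, and these differences were not tested. Serpinb6b, which was not flagged, also changed direction between classes. In T or NK cells it stood at 34.4 CPM in 377P and 61.1 in RP, but in monocytes or macrophages at 26.5 and 3.98. The log2 ratio of Serpinb1a, RP over 377P, was 1.06 in T or NK cells and -0.59 in blood endothelium, a difference of 1.65. Against T or NK cluster 9 alone it was -0.90. The log2 ratio of Serpinb6a was 0.86 in monocytes or macrophages and -0.12 in blood endothelium, a difference of 0.98. The log2 ratio of Serpinb9 was 0.66 in T or NK cells and -0.46 in blood endothelium, a difference of 1.11. In T or NK clusters 9 and 29 alone that of Serpinb9 was -1.12.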

How the results depend on the processing

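The 29 members with the same highest class in both libraries stayed between 26 and 29 under the alternatives that could be run. The 16 pairs of member and class at least 2-fold higher in 377P became 10 at Leiden resolution 1.0, 8 at no more than 10% mitochondrial UMIs, 10 with Serpin genes allowed among the variable genes, 9 with a gate on single cells, 6 with cells thinned to 1000 UMIs and 8 with a minimum of 100 UMIs. That minimum also took the 21 pairs higher in RP to 6. The causes were not tested, apart from the smaller number of genes that a higher minimum leaves. Of 444 ratios recomputed for single members, 361 stayed within the counting interval of the reported value, 75 moved further and 8 changed direction. The log2 ratio (RP over 377P) became -0.90 for Serpinb1a and -0.019 for Serpinb6a in T or NK clusters 9 and 29 alone. For Serpinb6a it became -0.0749 in fibroblasts thinned to 1000 UMIs. In keratinocytes that of Serpinb6a became -0.0816 at Leiden resolution 1.0, -0.0697 in cells of at least 1000 UMIs, -0.0799 with Serpin genes among the variable genes and -0.0328 in clusters 2 and 17 alone. For Serpinb9 in monocytes or macrophages it became 0.83 with the gate on single cells. The comparison of matched clusters and that without cluster 24 were chosen after seeing the data, and without cluster 24 mucous gland had too few 377P cells to compare. Removing a replicate was not possible with 1 library per title. No paired analysis was possible because each title has 1 library.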
